A study of Mus musculus with 2 samples.

Results

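Th1-like CD4 T cells of the pancreatic islet were taken as 546 of the 22466 kept cell barcodes of the series. The library labelled WT NOD, called the wild-type library below, held 275 among 12252 kept barcodes, and the library labelled NOD.Cxcl16-/- held 271 among 10214. They were chosen by measured values: a member held at least 1 UMI (a counted RNA molecule) of Cd4, at least 1 of a CD3 chain (Cd3d, Cd3e or Cd3g) and at least 1 of Ifng, Cxcr6 or Tbx21. It held no UMI of Cd8a, Cd8b1, Foxp3, Il21 or Cxcr5. It also held at most 1 UMI of Cd79a, C1qa and Lyz2 together, of Mki67 and Top2a together, and of Tnfsf8, Nrn1 and Tnfsf11 together. Levels of these genes in the members describe the choice and are not a result. In each contrast of members with other cells, the rule sorted the cells of both sides. Islets of female mice aged 12 weeks had been hand-picked and dispersed without an enzyme, and live leukocytes (CD45-positive, CD31-negative) had been sorted from them. One library came from wild-type mice of the NOD strain, which develops autoimmune diabetes. The other came from mice labelled NOD.Cxcl16-/-, a knockout of the CXCR6 ligand CXCL16 on the same strain. The labels do not give the number of mice per library. With 1 library per genotype no test is possible, and all intervals below are 95% intervals that cover counting error only.

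T helper 1 cells are CD4 T cells that make interferon gamma, the product of Ifng, under the transcription factor T-bet, the product of Tbx21. Interleukin 12 and interleukin 18 drive this programme, and the chemokine receptors CXCR3 and CXCR6 are known from such cells in inflamed tissue. In NOD mice, interferon gamma-producing CD4 T cells that recognise islet antigens are known to transfer diabetes.

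Kept barcodes had a median of 4269 UMIs in the wild-type library and 5189 in the other, and members 3701 and 4272. The second label was checked on its targeted gene: Cxcl16 stood at 104.0 CPM (UMIs scaled to a common total) over the kept barcodes of the wild-type library and 102.1 CPM over those of the other. The transcript level thus goes against the label, and where the gene was disrupted is not stated in the labels. Directions below are between libraries, not genotypes. The libraries shared 45 barcode sequences, of which 0 and 1 were members. No doublet caller was applied to the main set. The gates of the rule took its place, and removal by doublet score is among the alternatives.

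Of the 3 genes behind the name, Cxcr6 admitted the most members. Cxcr6, the receptor of CXCL16 (ENSMUSG00000048521, chromosome 9, 123806475 to 123811760, plus strand), was detected in 195 members (70.9%) of the wild-type library and 182 members (67.2%) of the other. Ifng (ENSMUSG00000055170, chromosome 10, 118441046 to 118445892, plus strand) was detected in 140 members (50.9%) and 146 members (53.9%). Tbx21 (ENSMUSG00000001444, chromosome 11, 97098071 to 97115331, minus strand) was detected in 71 members (25.8%) and 83 members (30.6%). Few members held all 3 transcripts, 18 and 21, while 94 and 74 were admitted by Cxcr6 alone, 50 and 51 by Ifng alone and 18 and 27 by Tbx21 alone. A single UMI of the 3 genes admitted 88 and 79 members. Positions are those of GENCODE release M21 on GRCm38, the assembly behind the mm10 build of the files.

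The bases before the start sites of these 3 genes are shown because the choice of the cells rests on their transcripts. They are the 250 bases upstream of the start in RefSeq's promoter table (GRCm38.p6), at chr10:118440796-118441045 on the plus strand for Ifng, chr9:123806227-123806476 on the plus strand for Cxcr6 and chr11:97115332-97115581 on the minus strand for Tbx21. Capitals mark a match to TTCNNNGAA, the interferon-activated (GAS) element bound by STAT factors, or to GGTGTGA, the T-box element, both searched on either strand.
Ifng: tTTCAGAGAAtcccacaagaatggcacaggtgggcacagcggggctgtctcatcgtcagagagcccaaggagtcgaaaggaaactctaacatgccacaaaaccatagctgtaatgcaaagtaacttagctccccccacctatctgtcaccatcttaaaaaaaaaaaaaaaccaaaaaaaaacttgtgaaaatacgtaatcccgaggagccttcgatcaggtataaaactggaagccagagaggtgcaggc
Cxcr6: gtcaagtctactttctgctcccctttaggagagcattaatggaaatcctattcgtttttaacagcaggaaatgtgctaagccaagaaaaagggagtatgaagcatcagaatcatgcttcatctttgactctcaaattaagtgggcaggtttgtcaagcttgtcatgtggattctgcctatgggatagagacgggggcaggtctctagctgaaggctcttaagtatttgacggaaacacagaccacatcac
Tbx21: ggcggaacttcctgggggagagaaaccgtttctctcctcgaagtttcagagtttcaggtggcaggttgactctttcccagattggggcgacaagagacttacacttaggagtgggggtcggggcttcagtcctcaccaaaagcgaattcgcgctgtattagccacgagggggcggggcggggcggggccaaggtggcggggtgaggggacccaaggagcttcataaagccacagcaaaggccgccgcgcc
The Ifng window held 1 GAS match, which begins 249 bases before the start, and the Cxcr6 and Tbx21 windows held neither element. Over all 32851 windows of this length in the table, 7.02% held the GAS element and 3.33% the T-box element. Of 22 genes looked up, the 3 above and the 19 helper-1 genes described below, 15 had an entry. The GAS element was in 4 of these (Il12rb2, Il18r1, Nkg7 and Ifng) and the T-box element in 1 (Nkg7). A gene was counted if any of its windows matched, while the shares above are of single windows, so the units differ. Such a match describes letters in a window and does not show a bound factor.

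Detection depends on depth, so each cell was thinned to 2000 UMIs, which left out 26 and 9 shallower members. Cxcr6 was then seen in 53.8% and 54.2% of members, Ifng in 33.3% and 37.02% and Tbx21 in 15.3% and 16.4%. B cells were taken for comparison, and their median depth was 4487 and 4577 UMIs. Their shares after thinning were 0.142% and 0.456% for Cxcr6, 0.425% and 0.114% for Ifng and 0.850% and 0.684% for Tbx21, and before thinning 0.787% and 0.831%, 0.918% and 0.332% and 1.97% and 2.38%. Among genes outside the rule, Nkg7 was seen in 46.6% and 51.1% of thinned members and 0.637% and 0.742% of thinned B cells. For Ccl5 the B-cell share was far larger, 13.2% and 7.59% (29.1% and 14.8% unthinned), against 53.4% and 48.9% of members (66.5% and 57.9% unthinned).

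The members were compared within each library with the other CD4 T cells, 432 and 367 barcodes that passed every gate but held no UMI of Ifng, Cxcr6 or Tbx21 (median 3855 and 4050 UMIs). Each set's UMIs were added up and scaled to CPM, and ratios are log2 of CPM with 1 CPM added. Of 5720 genes outside the rule with 20 CPM or more in either set of each library, 187 (3.27%) were past 2-fold higher in the members in both libraries and 47 (0.822%) past 2-fold lower. The median over all these genes was 0.146 and 0.150. TMM scaling lowers every ratio by 0.16 and 0.17 and gives 130 genes higher and 72 lower. Totals without ribosomal, mitochondrial and receptor segment genes give 167 and 85. With Cxcr6 not used in the rule the counts were 97 and 29, and with no filter on low values 527 and 203.

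Helper-1 genes outside the rule were mostly higher in the members. Of 19 listed genes 17 passed the filter, and 9 of these were past 2-fold higher and 1 past 2-fold lower in both libraries, with list medians of 1.08 and 1.24. Cxcr3, the chemokine receptor typical of these cells, stood at 159 and 181 CPM in the members of the wild-type library and of the other, and at 63.7 and 89.1 CPM in the other CD4 cells. Its log2 ratios were 1.31 and 1.02 (intervals 0.98 to 1.67 and 0.72 to 1.34), so that the members were above the other CD4 cells in both libraries. Receptors of the driving cytokines went the same way: Il12rb2, a chain of the interleukin 12 receptor, stood at 35.01 and 46.2 CPM against 8.61 and 19.01 CPM, and Il18rap, a chain of the interleukin 18 receptor, at 46.95 and 63.6 CPM against 9.18 and 22.3 CPM. Il18r1, its partner chain, was at log2 0.83 and 0.60, under 2-fold. Il2rb, a chain shared by the interleukin 2 and 15 receptors, stood at 189 and 179 CPM against 64.8 and 61.6 CPM. Among transcription regulators, Bhlhe40 (log2 1.67 and 1.89) and Id2 (1.08 and 1.30) were past 2-fold. Stat4, which relays interleukin 12 signals, was at 0.64 and 0.34 and Runx3, a partner of T-bet, at 0.43 and 0.74.

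The 2 helper-1 genes with the largest ratios encode a chemokine and a granule protein. Ccl5, which draws T cells and monocytes, stood at 3392 and 3529 CPM against 721 and 353 CPM, log2 ratios of 2.23 and 3.32. Its level was similar in the members of both libraries, while the other CD4 cells of the wild-type library held more of it than those of the other library. Nkg7, a membrane protein of cytotoxic granules, stood at 719 and 842 CPM against 115 and 74.7 CPM, log2 2.64 and 3.48. The interferon gamma receptor did not follow: its signalling chain Ifngr2 was the 1 listed gene past 2-fold lower, at 31.8 and 26.01 CPM against 88.4 and 87.8 CPM, and its binding chain Ifngr1 was at log2 0.058 and 0.25.

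Killing genes were higher as well. Of 15 listed, 8 passed the filter, and 7 of the 8 were past 2-fold higher in both libraries, with medians of 1.66 and 2.09. The share over all genes tested was 3.27%. A gene scarce in the other CD4 cells, such as Klrd1 in the second library, passed the filter only through its level in the members. The count and medians are thus partly set by the filter, which also bears on those of the other lists. Gzmk, a granzyme of effector memory T cells, stood at 115 and 98.99 CPM against 31.6 and 24.9 CPM and was seen in 24% and 20.3% of members. Klrd1, which encodes the CD94 chain of NK-cell receptors, stood at 58.1 and 128 CPM against 20.1 and 7.21 CPM. Ctsw and Cst7, a cathepsin and a cathepsin inhibitor of killer lymphocytes, were at log2 1.16 and 1.08 and at 1.36 and 2.46. Gzma rested on few cells: it was seen in 2.54% and 3.69% of members, and 54.7% and 54.5% of its UMIs lay in 1 barcode of each library. With barcodes thinned before the rule, its ratio in the second library turned to -0.14. Prf1, which encodes perforin, had 10 and 22 UMIs and did not pass the filter. The 6 NK-cell markers, which include Gzma and Klrk1 of the killing list, summed to 142 and 96.8 CPM in members and 18.4 and 13.1 CPM in the other CD4 cells, with Klra8 at 0 in the second library. The 6 gamma-delta T-cell markers summed to 86.7 and 63.6 CPM against 9.18 and 15.7 CPM, with Sox13 at 0. Without barcodes of other lineages, by limits given further on, the ratios were 2.14 and 2.07 for Gzmk, 1.82 and 4.37 for Klrd1 and 2.74 and 3.68 for Nkg7.

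**Figure D1:**
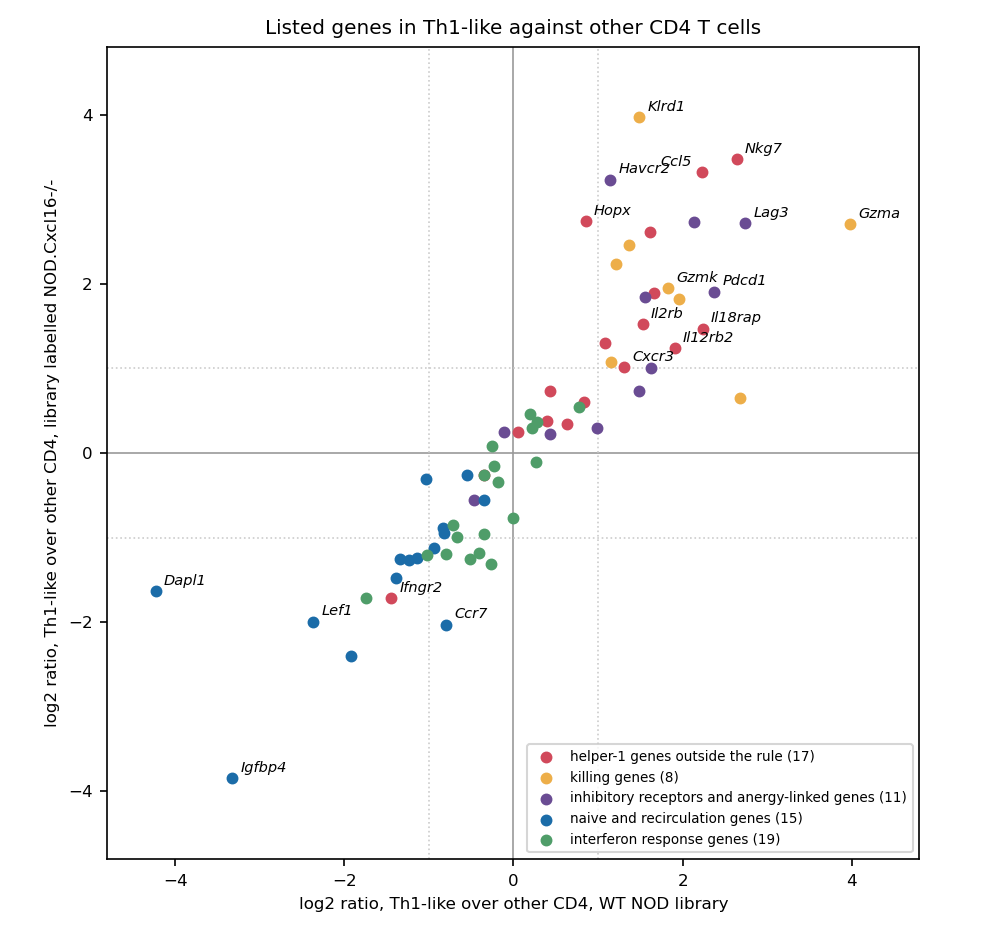
Log2 ratio of CPM, Th1-like over other CD4, in the wild-type library (horizontal axis) and in the library labelled NOD.Cxcl16-/- (vertical axis), with 1 point per gene of 5 lists and dotted lines at 2-fold. Nkg7 and Lag3 lie past 2-fold at the upper right, and Igfbp4 and Lef1 at the lower left.

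Among secreted factors, 3 of the 10 genes that passed the filter, of 18 listed, were past 2-fold higher in the members than in the other CD4 T cells. Il10, an anti-inflammatory cytokine, stood at 113 and 71.5 CPM against 9.75 and 16.4 CPM and was seen in 18.9% and 12.2% of members. Ccl4, another chemokine, stood at 388 and 191 CPM against 27.5 and 18.4 CPM, and Tnfsf10, which encodes the death ligand TRAIL, at 31.03 and 28.2 CPM against 7.46 and 8.52 CPM. Other cytokines were scarce: Csf2 and Il3 had no UMI in any member, which allows up to 3 UMIs per library, and Il2 had 9 and 9 UMIs.

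Inhibitory receptors were higher in the members than in the other CD4 T cells, while counts against nearer CD4 sets, given further on, were small. Of the 11 inhibitory and anergy-linked genes that passed the filter, of 14 listed, 6 were past 2-fold higher in both libraries, with medians of 1.49 and 1.01: Pdcd1 (PD-1), Ctla4, Lag3, Tigit, Havcr2 (TIM-3) and Entpd1 (CD39). Lag3, a receptor for MHC class II, stood at 281 and 157 CPM against 41.3 and 22.9 CPM, and Pdcd1 at 111.4 and 126 CPM against 20.7 and 32.8 CPM. Ctla4, which competes with CD28 for its ligands, stood at 1155 and 1084 CPM against 375 and 537 CPM. Residency genes were divided: 4 of the 12 that passed the filter were past 2-fold higher, with medians of 0.93 and 0.66. These were Rgs1, which damps chemokine receptor signals (1642 and 1403 CPM against 470.5 and 460.1 CPM), Prdm1, which encodes BLIMP-1 (88.3 and 81.7 CPM against 15.5 and 20.97 CPM), Ahr, and the chemokine receptor Ccr2 (112 and 99.7 CPM against 19.5 and 22.9 CPM). Cd69, often used to mark resident cells, was lower in the members, at 282 and 239.9 CPM against 449 and 434 CPM, and Zfp683, which encodes HOBIT, had 0 and 2 UMIs.

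Genes of naive and recirculating T cells were lower. All 15 listed genes passed the filter, all 15 were lower in both libraries and 8 were past 2-fold, with medians of -1.14 and -1.26. Igfbp4 stood at 23.9 and 12.3 CPM against 249 and 190.1 CPM. Lef1, a transcription factor of early T cells, stood at 109.8 and 128 CPM against 569.8 and 512 CPM. In both genes the members of both libraries were below the other CD4 cells of either library. Tcf7, Dapl1, Satb1, Bach2 and Txk were also past 2-fold. S1pr1, the receptor for exit from tissue, was at log2 -0.94 and -1.12 and Klf2, its activator, at -0.83 and -0.89.

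Interferon response genes were mostly lower in the members. Of the 19 that passed the filter, 13 were lower in both libraries and 4 higher, with medians of -0.27 and -0.77, and 2 were past 2-fold lower, Ifit1 and Iigp1. Iigp1, an interferon-induced GTPase, stood at 58.9 and 54.2 CPM against 121 and 126 CPM, and Irf1, a transcription factor induced by interferon gamma, at 502 and 422 CPM against 799 and 844 CPM. Cytokine transcripts of other helper fates were few: Il5 and Il13 had no UMI in any member, Il4 had 0 and 2 and Il17a 2 and 13 UMIs. Transcription factors were not as scarce. Gata3 stood at 60.3 and 56.02 CPM in members with Cxcr6 and 60.9 and 81.2 CPM in those without it. Rora stood at 218 and 306 CPM and at 186 and 195 CPM. No type 2 or type 17 gene was past 2-fold in either direction in both libraries, where 2 of 8 and 1 of 8 listed genes passed the filter. The 1 type 17 gene was at log2 0.93 and 0.91, just under 2-fold higher in the members, and the type 2 medians were -0.43 and -0.26.

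Ranked by the smaller of the 2 ratios, the 15 highest genes were Dlg2, Ccl4, Socs2, Hip1, Lag3, Gzma, Gm48236, Penk, Nkg7, Lgals3, Foxb1, Tmem163, Ccl5, Anxa4 and Camk2n1. Several of these are not textbook helper-cell genes. Dlg2, a scaffold protein known from synapses, stood at 32.6 and 26.7 CPM against 1.15 and 1.31 CPM and was seen in 10.2% and 10.7% of members. Hip1, an endocytic adaptor, stood at 54.1 and 47.7 CPM against 1.72 and 5.90 CPM, in 16.4% and 15.5% of members. Socs2, a feedback inhibitor of cytokine signals, stood at 85.2 and 72.98 CPM against 9.75 and 9.18 CPM, and Lgals3, which encodes galectin-3, at 208 and 236 CPM against 35 and 22.3 CPM. The Penk ratio in the wild-type library turned to -0.065 with barcodes thinned before the rule. The 10 lowest included Dapl1, Igfbp4, Pdlim4, Lef1, Ifit1, Tgtp1, Tdrp, Dusp10 and Zfp773. Dusp10, a phosphatase of MAP kinases, stood at 166 and 158 CPM against 509.5 and 522 CPM.

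**Figure D2:**
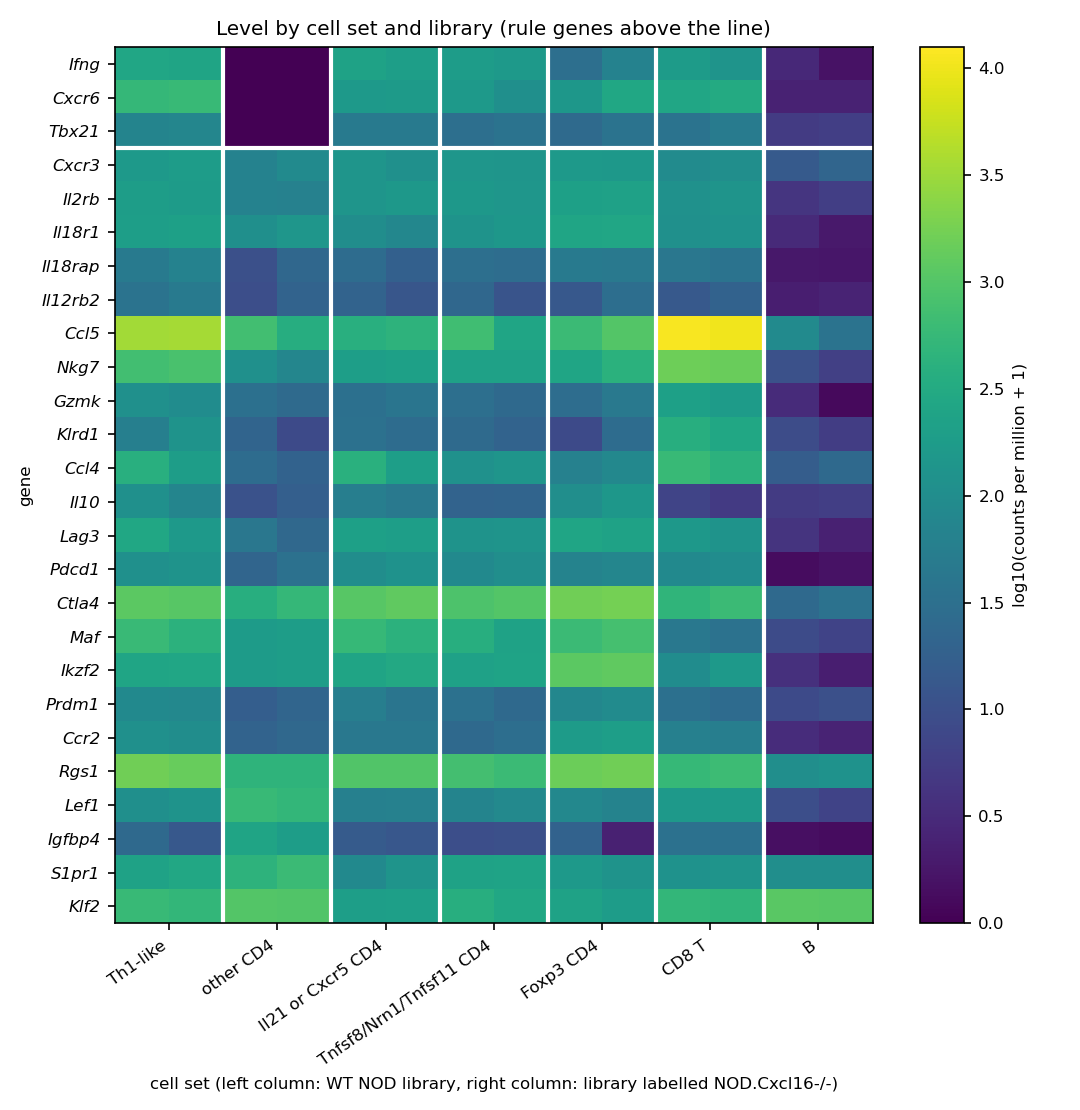
Levels of 26 genes (rows), as log10 of CPM plus 1, in 7 cell sets of each library (columns), with the genes of the rule above the line. Ccl5 is brightest in CD8 T cells, at 11420 and 10190 CPM, and next in the Th1-like cells. Lef1 and Igfbp4 are brighter in the other CD4 cells than in the Th1-like cells.

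CD4 T cells with Il21 or Cxcr5 (308 and 257), which the rule sets aside as follicular-type helpers, were compared next. Of 5850 genes, 55 (0.94%) were past 2-fold higher in the members in both libraries and 48 (0.821%) past 2-fold lower. Ccl5 stood at 3392 and 3529 CPM against 385 and 449 CPM, and Nkg7 at 719 and 842 CPM against 199 and 211 CPM. S1pr4, a receptor for sphingosine 1-phosphate, stood at 83.5 and 75.9 CPM against 20.8 and 24 CPM. Of 12 inhibitory and anergy-linked genes, 0 were past 2-fold higher in the members and 2 were past 2-fold lower (Btla and Sostdc1). None of Pdcd1, Ctla4, Lag3, Tigit, Havcr2 and Entpd1 was thus past 2-fold in the same direction in both libraries. Of 12 naive and recirculation genes that passed this filter, 5 were past 2-fold higher in the members (Klf2, S1pr1, Satb1, Txk and Klf3), the reverse of their direction against the other CD4 cells. Plagl1 was lower in the members, at 13.5 and 13.01 CPM against 91.1 and 104 CPM, as was Cxcl13, the ligand of CXCR5, at 5.57 and 2.89 CPM against 23.7 and 78.3 CPM. Of 13 cytokine and chemokine genes, 1 was past 2-fold higher in the members in both libraries (Fasl) and 2 were lower (Il2 and Lta). Neither Ccl4 nor Il10 was thus past 2-fold in both libraries. For Ccl4 these cells held 811 and 384 of 2063709 and 1916656 UMIs, and the members 488 and 264 of 1256670 and 1383945. The rule itself placed the cells with Il21 or Cxcr5 on the other side.

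CD4 T cells with more than 1 UMI of Tnfsf8, Nrn1 and Tnfsf11 (268 and 311) differed in 47 of 5818 genes (0.808%) past 2-fold higher in the members in both libraries and 33 (0.567%) past 2-fold lower. Hopx stood at 58.9 and 102 CPM against 15.1 and 15.3 CPM and Ccl5 at 3392 and 3529 CPM against 705 and 256 CPM. Il10 stood at 113 and 71.5 CPM against 19.5 and 20.01 CPM and Ccr2 at 112 and 99.7 CPM against 24.6 and 28.96 CPM. Of 11 cytokine and chemokine genes, Il10 was the 1 past 2-fold higher in both libraries. Ccl4 was past 2-fold higher in the wild-type library only. These cells held 187 and 263 Ccl4 UMIs of 1586282 and 1899126, and the members 488 and 264 of 1256670 and 1383945. Granzymes (Gzma, Gzmb and Gzmk) were also among the higher genes, and Cacna1d, a calcium channel (1.59 and 3.61 CPM against 28.4 and 48.97 CPM), and Plagl1 (13.5 and 13.01 CPM against 55.5 and 83.2 CPM) were among the lower ones. Of 12 inhibitory and anergy-linked genes, 1 was past 2-fold higher in the members in both libraries (Entpd1) and 1 past 2-fold lower (Btla). CD8 T cells (2361 and 1340) held more Ccl5 than the members, at 11420 and 10190 CPM, and more Nkg7, at 1587 and 1475 CPM.

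The rule admits a cell at 1 UMI of Ifng, Cxcr6 and Tbx21, and levels differed on the 2 sides of this limit. Cells with 0, 1, 2 to 4 and 5 or more such UMIs numbered 432, 88, 106 and 81 in the wild-type library and 367, 79, 93 and 99 in the other. Along this series Nkg7 stood at 115, 430.1, 616 and 1052 CPM in the wild-type library and at 74.7, 186, 627 and 1561 CPM in the other. Lef1 stood at 569.8, 125, 132 and 74.7 CPM and at 512, 111.2, 188 and 81.8 CPM. Cells just inside the limit were thus close to the other members in Lef1 and between the groups in Nkg7. Lag3 at 1 UMI differed between the libraries, at 189.8 CPM in the wild-type library and 25.9 CPM, from 10 UMIs, in the other.

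**Figure D3:**
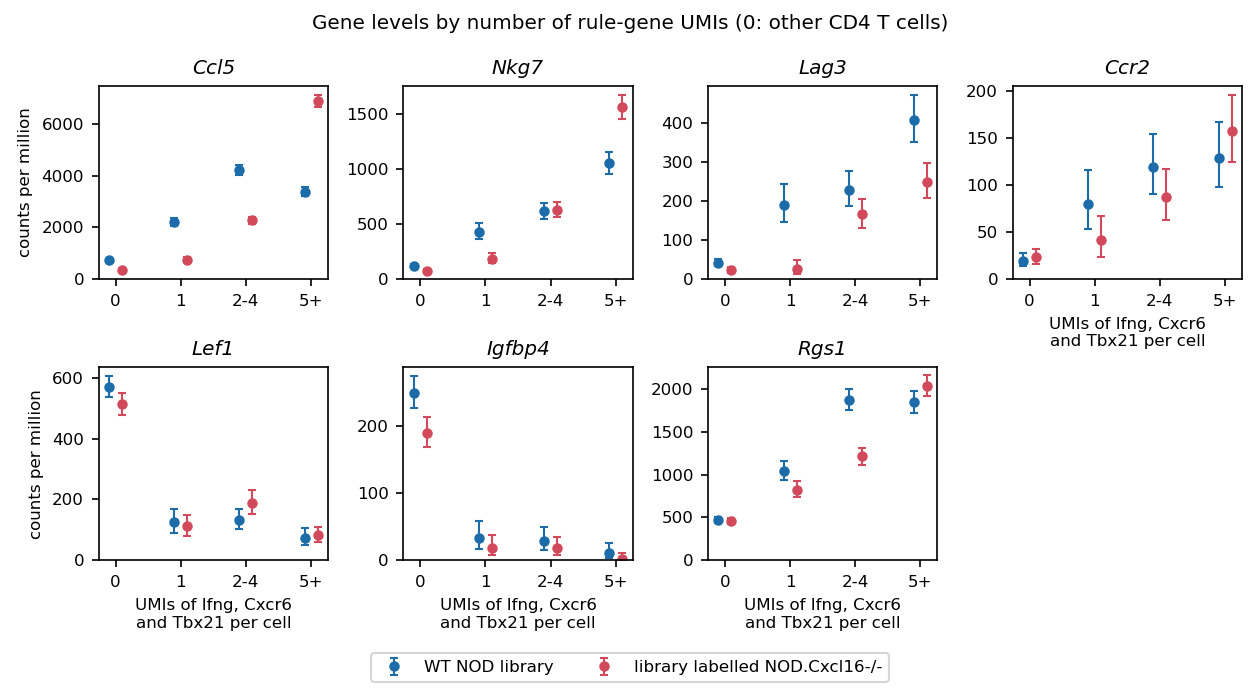
CPM of 7 genes in cells with 0 (other CD4 T cells), 1, 2 to 4 and 5 or more UMIs of Ifng, Cxcr6 and Tbx21, by library, with 95% Poisson intervals that cover counting error only. Nkg7 is highest at 5 or more UMIs in both libraries, and Lef1 and Igfbp4 are highest at 0.

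The members were not uniform, and they are described below by splits on Cxcr6, Ccl5, Il10, Ikzf2 and Penk that were chosen after values had been seen. Members with Cxcr6 (195 and 182) are set against members without it (80 and 89), which entered by Ifng or Tbx21. Prdm1 stood at 110.8 and 103 CPM against 28.99 and 37.3 CPM, Ccr2 at 132 and 131 CPM against 60.9 and 35.1 CPM and Id2 at 404 and 473 CPM against 220.3 and 211 CPM. These 3 genes were higher with Cxcr6 in both libraries. Cd69 and, in the wild-type library, Gzma were lower with it. Cd69 stood at 242 and 228 CPM against 388 and 263 CPM, and Gzma, with few UMIs, at 30.7 and 54.9 CPM against 104 and 8.78 CPM. S1pr1 and Tcf7 were lower with Cxcr6. S1pr1 stood at 163 and 202 CPM against 417 and 441 CPM, and Tcf7, a transcription factor of memory and naive cells, at 127 and 91.6 CPM against 226 and 252 CPM. Not all genes of the naive and exit lists shared this direction in both libraries: Satb1 stood at 206 and 218 CPM against 194 and 149 CPM, Lef1 at 109.7 and 118 CPM against 110.2 and 147 CPM and S1pr4 at 75.7 and 95.9 CPM against 104 and 35.1 CPM. In cells thinned to 2000 UMIs, S1pr1 was seen in 17.2% and 16.2% of members with Cxcr6 and 39.1% and 47.5% of members without it. Ccl5 split by library: it stood at 3452 and 4843 CPM against 3232 and 852 CPM, so that members without Cxcr6 held about as much as those with it in the wild-type library and far less in the other.

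Members with at least 5 UMIs of Ccl5 (92 and 96) held more of the transcripts of Nkg7 and of several killing genes. Nkg7 stood at 1395 and 1476 CPM against 346 and 425 CPM, Gzmk at 181 and 178 CPM against 77.8 and 46.7 CPM and Klrd1 at 107 and 209 CPM against 30.9 and 74.3 CPM. Not all killing genes were higher in both libraries: Klrk1 stood at 53.7 and 36.4 CPM against 54.4 and 26.4 CPM. Eomes, the relative of T-bet known from killer cells, had 21 of its 22 UMIs in these members in the wild-type library and 20 of 22 in the other. Cd40lg, the helper signal to B cells, was lower, at 69.3 and 91.02 CPM against 143 and 157 CPM, as was the interleukin 7 receptor Il7r, at 190.1 and 244 CPM against 364 and 374 CPM. Median depth was 3700 against 3701 UMIs in the wild-type library and 4957 against 3859 in the other.

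A further split was on Il10, detected in 52 and 33 members. It overlapped the split on Ccl5: 18 and 12 of these members also held at least 5 UMIs of Ccl5. Lag3 stood at 551 and 429.7 CPM against 216 and 120.4 CPM in members with and without Il10, and Maf, a transcription factor that promotes Il10, at 1200 and 841 CPM against 452 and 372 CPM. Il7r was lower, at 93.9 and 67.5 CPM against 353 and 356 CPM. Some genes known from regulatory T cells were higher with Il10. Ikzf2, which encodes Helios, stood at 559 and 884 CPM against 189 and 183 CPM. Tnfrsf18, which encodes GITR, stood at 449 and 522 CPM against 204 and 141 CPM. Izumo1r, which encodes folate receptor 4, stood at 437 and 485 CPM against 196 and 102 CPM. Others did not share this direction in both libraries: Nrp1 stood at 28.6 and 73.7 CPM against 71.2 and 94.2 CPM. Il2ra, with few UMIs, stood at 20.4 and 30.7 CPM against 23.7 and 12.3 CPM.

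Ikzf2 itself was present with at least 2 UMIs in 58 members (21.1%) and 60 (22.1%). The share was 9.95% and 11.7% in the other CD4 cells and 31.5% and 34.6% in CD4 T cells with Il21 or Cxcr5. It was 25.4% and 23.15% in those with more than 1 UMI of Tnfsf8, Nrn1 and Tnfsf11. In CD4 T cells with Foxp3 it was 83.5% and 86.9%. Of these CD4 T cells with Foxp3, which passed the other lineage and cell-cycle gates (115 and 191), 54.8% and 46.1% held a single Foxp3 UMI. Over the markers Foxp3, Ikzf2 and Il2ra the summed level was 284 and 280.4 CPM in members and 192 and 202 CPM in the other CD4 cells, with Foxp3 at 0 by the rule. Whether members with Ikzf2 are regulatory T cells without a captured Foxp3 UMI was not tested. Members with Ikzf2 held more Tnfrsf9, which encodes 4-1BB (270.1 and 419.8 CPM against 31.2 and 38.4 CPM), and more Itgae, the integrin chain CD103 (64.1 and 56.9 CPM against 19.8 and 13.8 CPM). They included 24 of the 52 and 19 of the 33 members with Il10. Without barcodes with Ikzf2 on either side, 225 genes were past 2-fold higher in the members than in the other CD4 cells and 50 lower.

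Penk, which encodes the opioid precursor proenkephalin, lay in few members: 12 and 13 held at least 2 UMIs, and these held 144 of 149 and 85 of 92 Penk UMIs. Such cells were more frequent in the nearer CD4 sets. They numbered 27 of 308 and 25 of 257 among CD4 T cells with Il21 or Cxcr5. Among those with more than 1 UMI of Tnfsf8, Nrn1 and Tnfsf11 they numbered 28 of 268 and 30 of 311. Klf2 stood at 112 and 14.3 CPM against 597 and 550.2 CPM in members with and without Penk, S1pr1 at 56.1 and 28.6 CPM against 244 and 294 CPM, and Havcr2 at 140.3 and 272 CPM against 53.1 and 72.3 CPM. Members with Penk were thus low in exit genes, and they held 0 and 1 UMIs of Il10 and none of Gzma or Gzmb. A count of 0 allows up to 3 UMIs. Over all members Gzma stood at only 50.9 and 39.7 CPM and Gzmb at 27.85 and 25.29 CPM. Their absence from 12 and 13 cells thus does not set these cells apart.

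**Figure D4:**
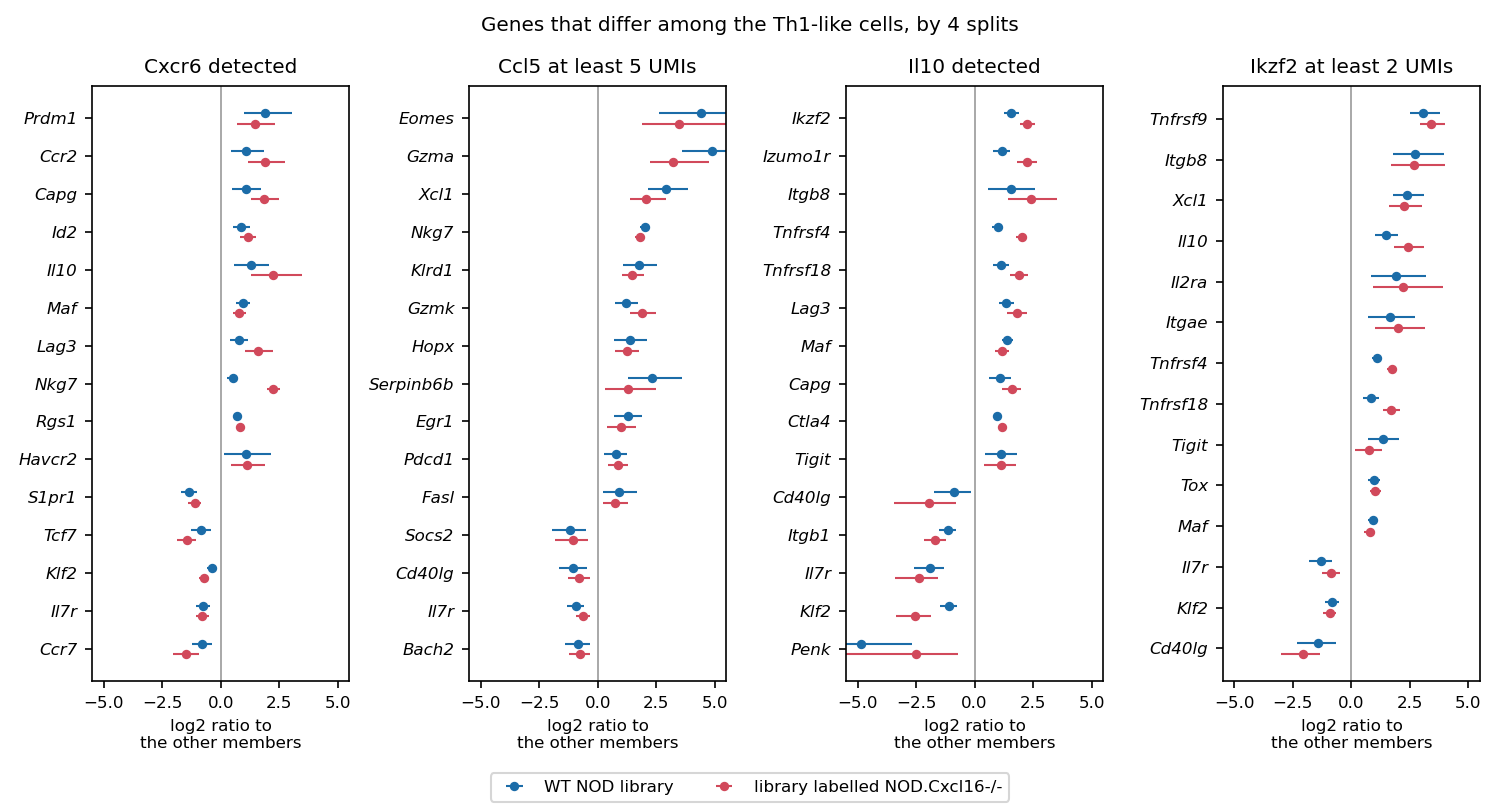
Log2 ratio of CPM between members on the 2 sides of 4 splits, by library, with 95% counting intervals (lines that meet the panel edge run on). S1pr1 lies left of 0 in the split on Cxcr6, Nkg7 right of 0 in the split on Ccl5, and Il7r left of 0 in the splits on Ccl5, Il10 and Ikzf2.

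Members were 2.25% (1.99 to 2.52) of kept barcodes in the wild-type library and 2.65% (2.35 to 2.98) in the other, which differ by 0.41 percentage points (0.0041 to 0.82). Among conventional CD4 T cells, which passed the gates on lineage, Foxp3 and cell cycle, they were 21.4% (19.2 to 23.8) of 1283 and 22.5% (20.1 to 24.9) of 1206, 1.04 percentage points (-2.21 to 4.29) apart. The second library was the deeper one. With each barcode thinned to 2000 UMIs before the rule, the shares of kept barcodes were 1.79% and 1.84%. Mice, preparation and genotype cannot be told apart in these libraries.

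Within the members, 6173 genes had 20 CPM or more in either library, of which 271 (4.39%) were more than 1.5-fold higher in the library labelled NOD.Cxcl16-/- and 288 (4.67%) more than 1.5-fold lower. These counts were 414 and 436 with Cxcr6 not used in the rule, 437 and 454 with at least 2 UMIs of the 3 genes, 978 and 927 after thinning before the rule, and 2668 and 2915 with no filter on low values. The rule genes stood at 540.3 and 587 CPM for Cxcr6, 271 and 244 CPM for Ifng and 70.8 and 74.4 CPM for Tbx21. Of 17 helper-1 genes, 2 were past 1.5-fold higher (Ifngr1 and Hopx) and 0 lower, with a median of 0.13 against 0.022 over all genes. The ratio was 0.19 (-0.085 to 0.46) for Cxcr3, 0.057 (-0.0022 to 0.12) for Ccl5 and -0.073 (-0.34 to 0.19) for Il2rb, each with an interval that includes 0.

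Among inhibitory and secreted factors, several genes were lower in the library labelled NOD.Cxcl16-/-. Lag3 stood at 281 CPM (353 UMIs) in the wild-type library and 157 CPM (217 UMIs) in the other, a log2 ratio of -0.84 (-1.09 to -0.59). The Lag3 ratio was -0.82 in the other CD4 cells, -0.15 in Foxp3 cells and -0.27 in CD8 T cells. Il10 stood at 113 and 71.5 CPM, log2 -0.65 (-1.04 to -0.28), and Izumo1r at 243 and 147 CPM, -0.72 (-0.99 to -0.47). Both moved nearer to 0 when barcodes were thinned before the rule, at -0.18 for Il10 and -0.12 for Izumo1r, and farther without the members with Ikzf2, at -1.26 and -1.12. Nr4a1, a gene induced by receptor signals, stood at 78.8 and 42.6 CPM, log2 -0.87. Ccl4 stood at 388 and 191 CPM, log2 -1.02 (-1.25 to -0.81), but 252 of its 488 UMIs in the wild-type library lay in the 58 members with Ikzf2, and 23.8% in 1 barcode. Without the members with Ikzf2 the Ccl4 ratio was -0.17.

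Other genes were higher in the library labelled NOD.Cxcl16-/-. Klrd1 stood at 58.1 CPM (73 UMIs) and 128 CPM (177 UMIs), log2 1.12 (0.74 to 1.55). In the other CD4 cells its ratio had the opposite sign, at -1.36, and in CD8 T cells it was -0.38. Hopx, a cofactor known from effector T cells, stood at 58.9 and 102 CPM, log2 0.78 (0.38 to 1.22), and its ratio was -1.10 in the other CD4 cells. Fasl, the death ligand, stood at 54.1 and 87.4 CPM, and Tnfrsf9 at 87.5 and 140.2 CPM, log2 0.67, which was 0.29 without the members with Ikzf2. Ifngr1 stood at 412 and 628 CPM, log2 0.61, and was also higher in the other CD4 cells (0.41), Foxp3 cells (0.55) and CD8 T cells (0.45). Whether a difference is particular to the members was not tested.

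The highest and lowest ratios between the libraries touched many genes of other cell types. The 10 highest were Gcg, Nrgn, Dapl1, Ly6d, Ins2, Ins1, Spp1, Ncald, Kcnmb4 and Prickle1, and the 10 lowest Tm4sf5, Mt2, Gstp1, Cacnb3, Cd40, Kazn, Cd63, Cxcl16, H2-M2 and Fscn1. With barcodes thinned before the rule, the ratio turned to -1.35 for Dapl1 and -0.68 for Ncald, and with Cxcr6 not used in the rule to -1.12 for Ly6d. Ins2, an insulin gene of beta cells, stood at 37.4 and 147 CPM, a ratio of 1.94, and its ratio was 1.82 in the other CD4 cells and 1.75 in B cells. The 6 islet endocrine markers summed to 109.8 and 325 CPM in members and 129.7 and 265 CPM in the other CD4 cells. For Gcg 81.7% and for Ly6d 97.4% of UMIs in the library labelled NOD.Cxcl16-/- lay in 1 barcode. Gstp1, which encodes a glutathione transferase, had 39 and 4 UMIs, and its ratio lay between -1.32 and -1.58 in the 6 comparison sets.

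Some members carried transcripts of antigen-presenting cells or other lymphocytes. At least 2 UMIs of H2-Ab1, 2 of Trdc or 10 of Igkc were found in 31 members (11.3%) of the wild-type library and 19 (7.01%) of the other, limits set after the data had been seen, and these held 21.4% and 15.2% of member UMIs. The 8 dendritic-cell markers summed to 902 and 785 CPM in members and 717 and 497 CPM in the other CD4 cells, with Xcr1 at 0 in the wild-type library and Clec9a at 0 in the other. The 6 B-cell markers summed to 10.3 and 7.95 CPM against 28.7 and 15.7 CPM, with Ebf1 at 0 in the second library. The 9 macrophage and monocyte markers summed to 40.6 and 49.9 CPM against 36.1 and 48.5 CPM, with Adgre1 at 0 in both libraries. The 5 markers of invariant natural killer T cells summed to 17.5 and 8.67 CPM against 1.15 and 1.97 CPM, with Trav11 and Trav11d at 0. The 7 markers of the T cell receptor complex summed to 7907 and 7530 CPM in members and 6096 and 6090 CPM in the other CD4 cells.

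Without those barcodes the shares of members were 1.99% and 2.47%, and 195 genes were past 2-fold higher than in the other CD4 cells and 48 lower. Cxcl16 in members went from 68 and 10 UMIs to 4 and 0. In the wild-type library H2-M2 went from 182 to 0, Cd40 from 26 to 0 and Cd63 from 44 to 0 UMIs. The UMIs behind the low ratios of these genes thus lay in the removed barcodes. The Ccr7 ratio, -0.88 with them, was -0.10 without them and 0.15 with thinning before the rule. Lag3 (-1.005), Il10 (-0.87), Klrd1 (1.08), Hopx (0.69) and Gstp1 (-3.40) kept their directions.

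**Figure D5:**
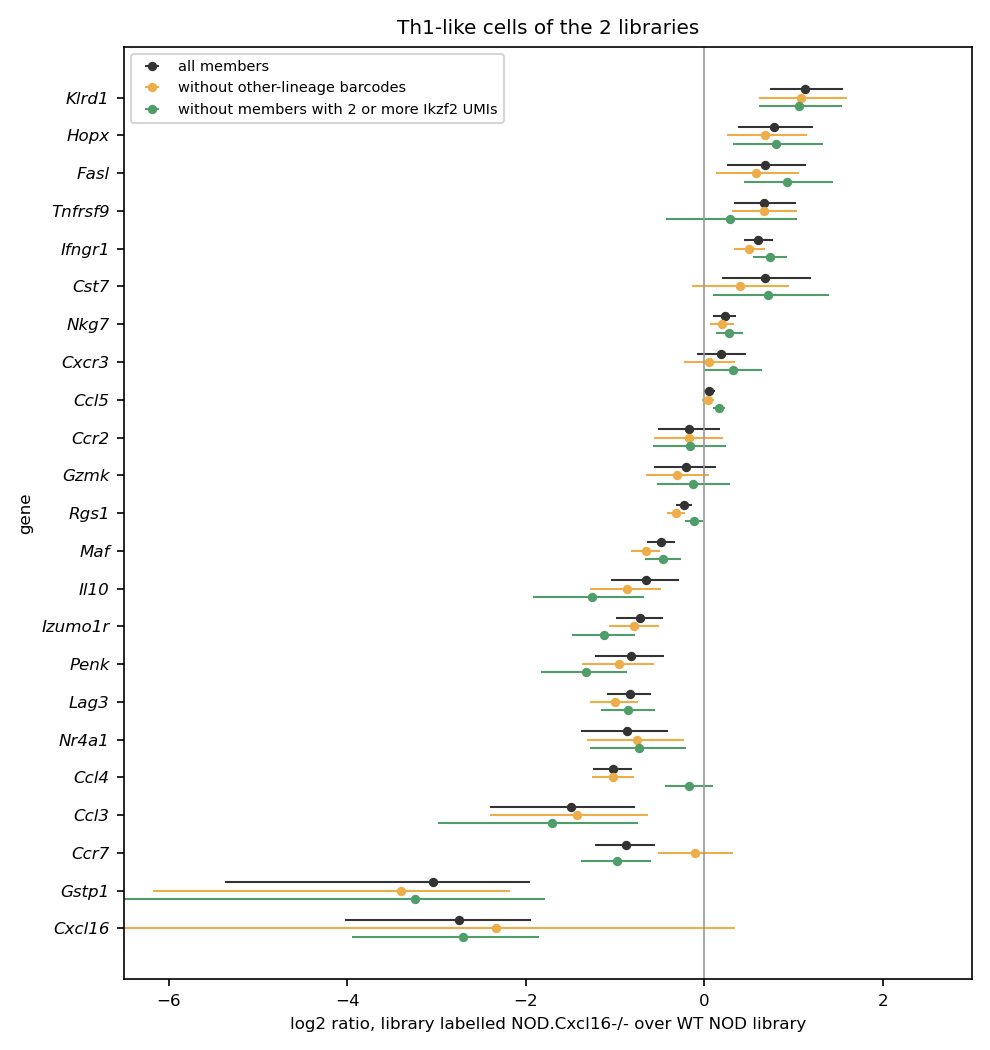
Log2 ratio of CPM in Th1-like cells, the library labelled NOD.Cxcl16-/- over the wild-type library, for 23 genes with 95% counting intervals: all members, members without other-lineage transcripts, and members with fewer than 2 Ikzf2 UMIs (lines that meet the panel edge run on). Klrd1 and Hopx lie right of 0 and Lag3 and Il10 left of 0 in all 3, Ccr7 lies near 0 without other-lineage barcodes, and Ccl4 lies near 0 without members with Ikzf2.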

How the data were processed

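Single-cell libraries of islet leukocytes were read from the deposited matrices, 1 per genotype. They hold raw UMI counts per gene and barcode, whole numbers that the authors made with Cell Ranger 7.0.1, per the file headers and the submitters' processing notes, on build mm10, per the submitters' processing notes. Whether introns were counted is not given in the sources used here. Of 32285 gene IDs, 32158 occur in GENCODE release M21.

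Barcodes with at least 500 genes and at most 10% mitochondrial UMIs were kept (12252 of 13859 and 10214 of 10554). The members and the 15 gene lists were chosen with earlier results of these data known. UMIs summed over members came to 1256670 and 1383945. No test was made. Intervals at the 95% level are exact (Poisson for CPM, conditional binomial for ratios, without the added CPM, and Clopper-Pearson for shares) or Newcombe's (differences of shares).

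Named genes are those of the lists, the 15 highest and 10 lowest against other CD4 T cells, and the 10 highest and 10 lowest between libraries whose interval excluded 0. Ribosomal, mitochondrial and receptor segment genes were not ranked, and some genes that meet the rule are not reported here. Genes named against the nearest CD4 sets outside this rule were chosen after their values were seen. Of 15 alternatives, 2 were chosen after seeing the data (leaving out barcodes with other-lineage transcripts, and those with Ikzf2). The ratio step was tested on simulated data. Python 3.11.15, numpy 2.4.6, scipy 1.17.1, pandas 2.3.3, scikit-learn 1.9.0 and matplotlib 3.10.9 were used.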

Additional observations from a re-analysis of the deposited data

How the results depend on the processing

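No paired analysis was possible because each group is 1 library. Of 3874 values recomputed under 15 alternatives, 23 changed sign against an interval that excluded 0. The share differences stayed within their counting intervals under all 10 alternatives that bear on them. Of 665 shares, counts and list medians 42 moved beyond their limits, and of 3209 values of single genes 356 did so without changing sign. The limits are intervals of 1 library each and cover counting error only, so the spread between animals is not in them.

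With Cxcr6 not used in the rule, 97 genes were past 2-fold higher and 29 lower against other CD4 T cells, and 414 and 436 past 1.5-fold higher and lower between libraries. List medians against other CD4 cells were then, in the wild-type library, 0.74 for helper-1, 0.51 for follicular, 0.41 for regulatory, -0.79 for naive and 0.75 for inhibitory genes, and in the other library 1.14 for killing and 0.70 for inhibitory genes. Izumo1r against other CD4 cells in the second library was -0.038, and Ly6d between libraries -1.12.

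With barcodes thinned before the rule, 978 and 927 genes were past 1.5-fold between libraries. List medians against other CD4 cells were 0.48 for helper-1 and 0.67 for follicular genes in the wild-type library, and 0.29 for residency and 0.86 for inhibitory genes in the other. Between libraries they were 0.59 for killing and 0.23 for regulatory genes. Ratios between libraries that changed sign were Ccr7 0.15, Dapl1 -1.35, Gbp2 0.27, Irf1 0.066, Klrk1 0.59, Ncald -0.68, Penk 0.022, S1pr1 -0.23, Tnf 0.34 and Tnfrsf18 0.17. Against other CD4 cells, Penk was -0.065 in the wild-type library, and in the other Gzma was -0.14 and H2-M2 -2.54. Thinning leaves fewer members (170 and 175) and fewer UMIs.

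With at least 2 UMIs of Ifng, Cxcr6 and Tbx21, 437 and 454 genes were past 1.5-fold between libraries, and the naive list was at -1.66 in the second library. With the other-lineage and cell-cycle gates at 0, the regulatory list was at -0.36 between libraries. TMM scaling gave 72 genes past 2-fold lower and an inhibitory median of 0.84 in the second library. Totals without ribosomal, mitochondrial and receptor segment genes gave 85 past 2-fold lower, 446 past 1.5-fold lower between libraries, an inhibitory median of 0.86 in the second library and a chemokine and egress receptor median of 0.76 in the wild-type library. The mean over cells gave a residency median of 0.42 in the wild-type library. With no filter, 527 and 203 genes were past 2-fold and 2668 and 2915 past 1.5-fold, with medians in the second library of 1.21 for residency, 0.87 for inhibitory and 1.02 for chemokine and egress receptor genes, since more genes with few UMIs enter.

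Without barcodes of another lineage, medians in the wild-type library were 1.48 for regulatory and 1.79 for inhibitory genes. Ratios between libraries were Cd40 0.89, Cd63 1.44, Fscn1 0.058, H2-M2 2.14, Igfbp4 0.27 and Kazn 0.058, and H2-M2 against other CD4 cells was -0.72 in the wild-type library. Without barcodes with Ikzf2, 458 genes were past 1.5-fold lower between libraries, the regulatory median was 1.52 in the wild-type library and the inhibitory median 1.36 in the other. The causes of these shifts were not tested, apart from the smaller sets named above.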

Other observations

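Other lists were compared between the members and the other CD4 T cells. Of 14 integrin and adhesion genes that passed the filter, 4 were past 2-fold higher in both libraries (S100a4, S100a6, Lgals1 and Anxa2), with medians of 0.95 and 0.88. Of 9 follicular helper genes, 3 were (Pdcd1, Maf and Cd200), and Maf stood at 598 and 427 CPM against 179.6 and 194 CPM. Bcl6, the transcription factor that defines follicular helper cells, was at log2 -0.75 and -0.61. Of 7 regulatory genes, 4 were (Ctla4, Tnfrsf4, Itgb8 and Capg). The share over all genes tested was 3.27%. Of 12 receptor-signal genes 1 was past 2-fold higher (Irf8). Of 10 interleukin-2 family genes 2 were (Il2rb and Socs2), while the medians of that list lay below 0, at -0.073 and -0.29.

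Between the libraries, 15 of 18 interferon response genes were lower in the members of the library labelled NOD.Cxcl16-/-, 3 of them past 1.5-fold (Isg15, Isg20 and Gbp2; 4.67% of all genes), with a median of -0.23 against 0.022 over all genes. Of 10 killing genes, 3 were past 1.5-fold higher (Cst7, Klrd1 and Klrc1) and 2 lower (Klrk1 and Serpinb9), against 4.39% and 4.67% of all genes. With barcodes thinned before the rule, the ratio turned to 0.27 for Gbp2, 0.066 for Irf1 and 0.59 for Klrk1.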
